A study of Homo sapiens with 1 sample.

Results

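The miR-378 family was examined in DLD-1, an established line from a human colorectal carcinoma. The cells carried a negative control plasmid (pLVX-NC) and their RNA was read on 1 array. The members were taken by name, and all 10 were on the array: hsa-miR-378a-3p, hsa-miR-378a-5p, hsa-miR-378b, hsa-miR-378c, hsa-miR-378d, hsa-miR-378e, hsa-miR-378f, hsa-miR-378g, hsa-miR-378h and hsa-miR-378i, out of 2549 human miRNAs measured. The study set these cells against cells carrying a plasmid for the circular RNA circLONP2, whose array was not analysed here, so no condition could be compared. No replicate array was analysed, and the spots of a probe are technical repeats from 1 RNA sample.

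A miRNA is cut from a hairpin precursor by Drosha and Dicer, and either arm of the hairpin (5p or 3p) can be loaded into an Argonaute protein. Bases 2 to 8 of the mature miRNA, the seed, guide it to target mRNAs. MIR378A lies in an intron of PPARGC1B, which encodes PGC-1β, a coactivator of nuclear receptors that drives mitochondrial and oxidative genes, and miR-378a is known for roles in energy metabolism and in muscle cell differentiation. The other members are related sequences from other loci. On this kind of array a probe captures a labelled miRNA by base pairing, so a related miRNA can also bind it.

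The MIR378A hairpin is shown because it holds both arms of the PPARGC1B locus. The sequences given here are those of RefSeq in build GRCh38.p14, which held 8 of the 10 members. The hairpin spans chr5:149732825-149732890 on the plus strand and is 66 bases long, with the arms in capitals, miR-378a-5p first.

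MIR378A hairpin: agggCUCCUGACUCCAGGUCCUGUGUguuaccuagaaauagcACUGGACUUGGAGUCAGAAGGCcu

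The mature sequences are shown because the members with a sequence, other than miR-378a-5p, differ from miR-378a-3p by few bases. Capitals mark the seed. hsa-miR-378j, outside the member list, and hsa-miR-422a, which has the seed of miR-378a-3p, were the only other human miRNAs on the array, of 2248 matched to a sequence, that met the rule for near sequences (a shared seed, the miR-378 name or a shared run of at least 12 bases with a miR-378a arm).

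hsa-miR-378a-3p: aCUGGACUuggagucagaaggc

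hsa-miR-378i: aCUGGACUaggagucagaagg

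hsa-miR-378b: aCUGGACUuggaggcagaa

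hsa-miR-378f: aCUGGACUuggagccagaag

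hsa-miR-378g: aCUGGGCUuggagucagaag

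hsa-miR-378c: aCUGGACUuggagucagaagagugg

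hsa-miR-378h: aCUGGACUuggugucagaugg

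hsa-miR-378a-5p: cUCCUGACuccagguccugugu

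hsa-miR-378j: aCUGGAUUuggagccagaa

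hsa-miR-422a: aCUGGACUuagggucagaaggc

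The seed CUGGACU was shared by 6 of the 8 members with a sequence, namely miR-378a-3p, miR-378b, miR-378c, miR-378f, miR-378h and miR-378i, and by miR-422a. miR-378g carries CUGGGCU and miR-378j CUGGAUU at the same place. miR-378a-5p has the seed UCCUGAC, which no other matched human miRNA on the array had. The arms of the MIR378A hairpin have no shared run longer than 4 bases.

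With sequences aligned at the 5′ end without gaps and positions counted from there, miR-378i differs from miR-378a-3p by U9A and ends 1 base earlier. miR-378b differs by U14G and ends 3 bases earlier, and miR-378f differs at the same position, by U14C, and ends 2 bases earlier. miR-378g has A6G, inside the seed, and also ends 2 bases earlier. miR-378h has A12U and A19U. The first 20 bases of miR-378c are those of miR-378a-3p, after which it reads G21A and C22G and runs on to 25 bases. miR-378j has C7U and U14C. miR-422a has G10A and A12G, and its last 10 bases are identical to those of miR-378a-3p.

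By gene spans in the same assembly, MIR378A lies within PPARGC1B. MIR378B lies within ATP2B2, a plasma membrane calcium pump gene, MIR378E within DOCK2, MIR378H within FAXDC2 and MIR378I within TNFRSF13C, which encodes a receptor of B cells for the cytokine BAFF. miR-378d has 2 genes, MIR378D1 within C4orf50 and MIR378D2 within the non-coding RNA gene MIR378D2HG. MIR378G lies within the antisense RNA gene SLC44A3-AS1. No other gene spans MIR378C or MIR378F. These spans do not separate exons from introns and were not matched by strand, so a spanning gene need not be the host of the miRNA. Transcripts of the spanning genes were not measured on this array.

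Each member had 20 spots on the array, spread over 3 probes for miR-378a-3p and 2 probes for every other member. Of the 200 spots, 6 were marked as outliers by the scanner's software and left out, and none was saturated. Brightness is given in scanner units with the local background already subtracted. Negative controls, 1000 spots of 7 probes, had a 99th percentile of 12.5. Signals are also given as log2 values after subtraction of a reference, the 75th percentile over the detected probes, which stood at a brightness of 248.8. Different probes bind with different strength, so the brightness of one member against another is not a ratio of their amounts.

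As a check on the labelled cell type, 2 of 4 intestinal epithelial miRNAs carried the software's detection flag, beside 56.8% of all human miRNAs on the array. They were miR-141-3p, whose spots averaged 3024 ± 401 (SD, 20 spots), and miR-200c-3p, at 85.3 ± 29.8 (SD, 17 spots). miR-192-5p and miR-194-5p, which are abundant in normal gut epithelium, were not detected. Of 3 blood cell miRNAs only miR-223-3p was detected, with 16.5 ± 2.46 (SD over 20 spots), and its brightest probe was 1.34 times the 99th percentile of the negative controls. miR-451a and miR-144-3p were not detected. With lists this short these shares do not settle the cell type, which rests on the label.

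The detection flag was set for 9 of the 10 members, beside 56.8% of all human miRNAs on the array. The exception was miR-378a-5p. The other arm of the same hairpin, miR-378a-3p, was the brightest member, and miR-378i came next. These 2 members lay above the reference, and 7 detected members lay below it. With the percentile taken over all probes, 6 lay above it and 3 below. The median log2 signal was -0.83 over the 9 detected members and -2.06 over all 1448 detected human miRNAs. This describes the brightness of the probes and was not tested.

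**Figure D1:**
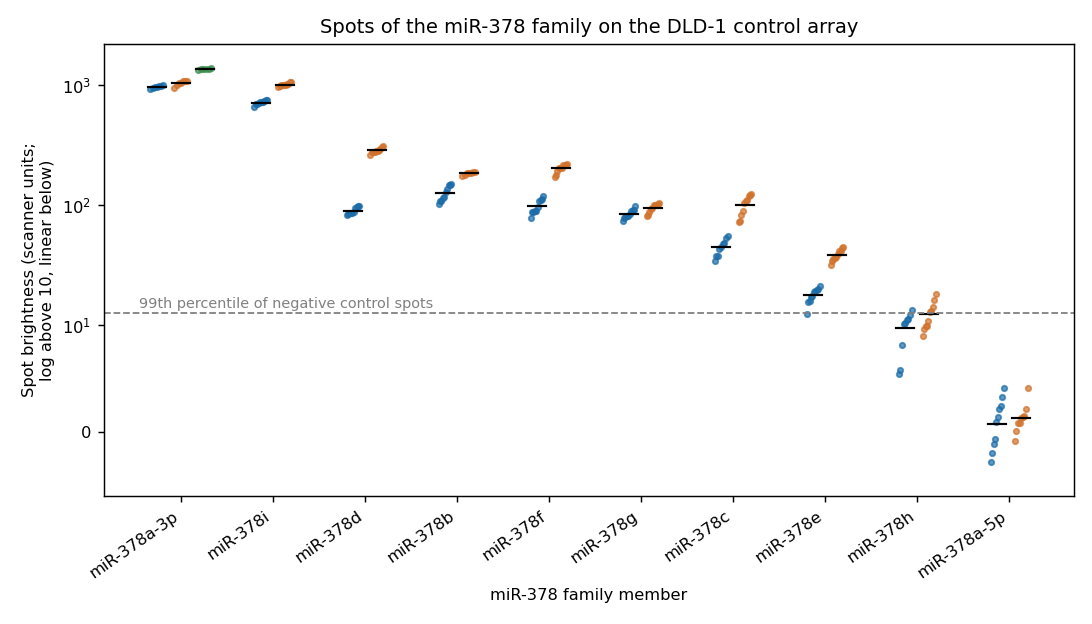
Brightness of every used spot of the 10 members (vertical axis, scanner units, logarithmic above 10 and linear below), in order of log2 signal. Points are spots, colours are the probes of a member from dimmest to brightest, and black lines are probe means. The spots of miR-378a-3p and miR-378i lie between 660.1 and 1379, those of miR-378h lie around the negative control percentile (dashed line, 12.5) and those of miR-378a-5p lie below it.

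miR-378a-3p, the 3p arm of the PPARGC1B locus, read 1110 ± 173 on average (SD over 20 spots), and all 20 spots were well above background. Its dimmest probe read from 928.6 to 1009 with a median of 962.9 over 7 spots. The second read from 947.4 to 1089 with a median of 1041 over 7 spots, and the brightest from 1331 to 1379 with a median of 1358 over 6 spots. The lower pair of probes overlapped, whereas the brightest stood above both. The log2 signal was 2.16, which was above that of 93.6% of detected human miRNAs.

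miR-378a-5p, the 5p arm of the same hairpin, had spots from -2.84 to 4.10 with a median of 1.27 over 19 spots. None of its 20 spots was well above background, and 3 of them passed the software's looser criterion of being positive and significant. Its probes had means of 1.26 ± 1.36 (SD over 9 spots) and 0.756 ± 2.32 (SD over 10 spots), both below the 99th percentile of the negative controls. This arm was not well above background, so no ratio between the arms is given.

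miR-378i, with 1 substitution from miR-378a-3p, read 862.8 ± 154 on average (SD over 20 spots), with every spot well above background. Its dimmer probe read from 660.1 to 747.4 with a median of 718.8, and its brighter probe from 972.9 to 1063 with a median of 1003, over 10 spots each. The probes of miR-378i did not overlap with each other, and its brighter probe overlapped in spot range with the lower pair of miR-378a-3p probes. Its log2 signal was 1.77.

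The next 3 members lay close together, with log2 signals of -0.64 for miR-378d, -0.71 for miR-378b and -0.83 for miR-378f. All 20 spots of each were well above background. The dimmer probe of miR-378d read from 83.3 to 98.9 with a median of 86.8, and the brighter from 261.6 to 310.4 with a median of 283.7, over 10 spots each. For miR-378b the dimmer probe read from 102.3 to 150.7 with a median of 123.4 over 10 spots, and the brighter from 174.6 to 188.1 with a median of 185.6 over 7 spots. The brighter probe of miR-378b lost 3 of its 10 spots as outliers, more than any other probe of the family.

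For miR-378f the dimmer probe read from 78.6 to 118.2 with a median of 93.4, and the brighter from 171.0 to 220.9 with a median of 202.3, over 10 spots each. In each of these members the probes were separate, while the ranges of the members overlapped. miR-378b and miR-378f, the members that differ from miR-378a-3p at position 14, averaged 149.9 ± 32.3 (SD over 17 spots) and 149.9 ± 55.3 (SD over 20 spots).

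miR-378g, the member with a changed seed, averaged 89.6 ± 9.18 (SD over 20 spots), with a log2 signal of -1.48. Its probes overlapped, with ranges from 73.2 to 97.7 and from 81.6 to 104.5 over 10 spots each. miR-378c, the longest of the 8 members with a sequence, averaged 74.1 ± 32.2 (SD over 19 spots), with a log2 signal of -1.91. Its dimmer probe read from 34.1 to 54.9 with a median of 45.0 over 9 spots, and its brighter probe from 72.8 to 124.2 with a median of 106.3 over 10 spots. All 20 spots of both members were well above background. The range of miR-378g fell between the dimmest and the brightest spots of miR-378c.

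miR-378e averaged 28.1 ± 11.2 (SD over 20 spots), with a log2 signal of -3.26. Its dimmer probe read from 12.4 to 21.1 with 5 of 10 spots well above background, and its brighter probe from 31.8 to 44.7 with 10 of 10. The brighter probe was 3.08 times the 99th percentile of the negative controls.

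miR-378h was the dimmest detected member, at 11.1 ± 3.15 (SD over 19 spots) and a log2 signal of -4.55. After normexp correction, which adds an offset of 50 to every value, the log2 signal was -2.13 for miR-378h and -1.84 for miR-378e. Of the 20 spots of miR-378h, 1 was well above background, and that spot was marked as an outlier and not used. Of the used spots 6 exceeded the 99th percentile of the negative controls. The mean of its brighter probe, 12.4 ± 3.08 (SD over 10 spots), was 0.991 times that percentile. It was the only detected member less than 2-fold above it. The percentile depended on 1 negative control probe with a median of 8.62. Without that probe it was 5.58, and miR-378h was 2.22 times it.

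Of the near sequences outside the member list, miR-422a averaged 228.4 ± 29.4 (SD over 20 spots), and its dimmest and brightest of 4 probes overlapped. miR-378j averaged 112.2 ± 13.3 (SD over 19 spots), and its 2 probes overlapped. All 20 spots of each were well above background.

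Likeness to miR-378a-3p was then set beside brightness, since a probe made for one member may also bind another. Apart from miR-378a-5p, which has 4 bases in common with it by position, the 8 other sequences had 17 to 20 bases identical to miR-378a-3p at the aligned positions. Among the 3 with 20, the mean brightness was 862.8 for miR-378i, 228.4 for miR-422a and 74.1 for miR-378c. Among the 3 with 19 it was 149.9 for miR-378f, 89.6 for miR-378g and 11.1 for miR-378h. miR-378b, with 18, had 149.9 and miR-378j, with 17, had 112.2. This count is limited by length as well as by substitutions. miR-378b (19 bases) and miR-378f (20 bases) have 1 substitution each, and miR-378h (21 bases) has 2.

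miR-378c, whose first 20 bases are all those of miR-378a-3p but whose 3′ end differs, was dimmer than miR-378i, which ends 1 base short of miR-378a-3p and differs at position 9. miR-422a, which has the last 10 bases of miR-378a-3p, was also brighter than miR-378c. The part of cross-hybridization in these values was not tested, and the probe sequences were not used here.

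**Figure D2:**
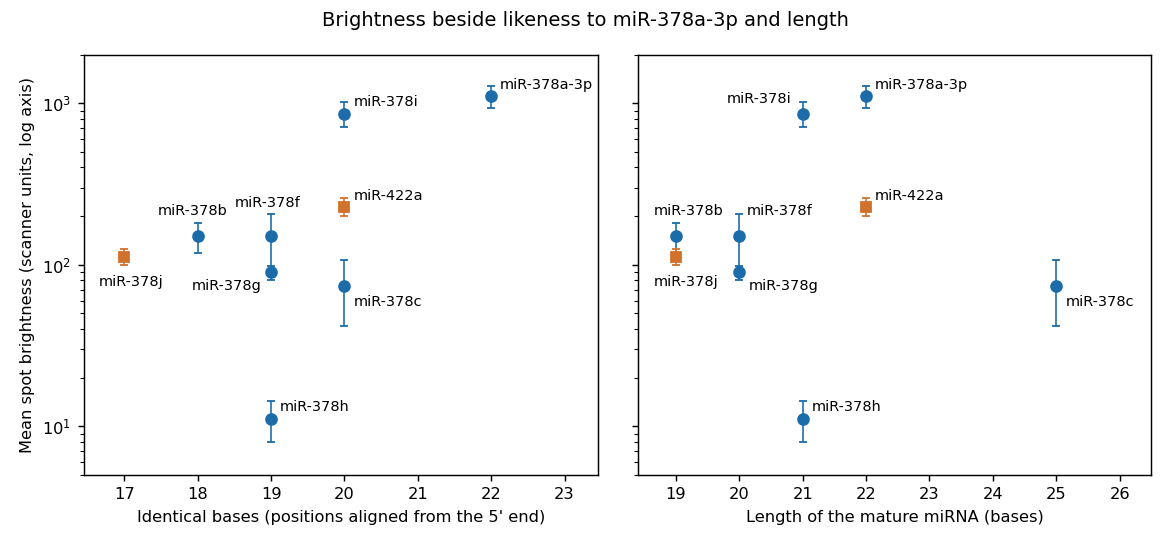
Mean spot brightness (vertical axis, scanner units, log axis; bars are the SD over spots) against bases identical to miR-378a-3p (left) and length in bases (right). Blue circles are members with a sequence, apart from miR-378a-5p, and orange squares are miR-378j and miR-422a. At 20 identical bases the brightness ranges from 74.1 for miR-378c to 862.8 for miR-378i.

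The probes of 1 member are assigned to the same miRNA, and their brightness differed for most members. In 7 of the 9 detected members the spots of the dimmest and the brightest probe did not overlap. Overlap was not counted over all detected human miRNAs, so whether this share is unusual on the array was not tested. The log2 difference from dimmest to brightest probe was 1.67 for miR-378d (standard error 0.04 from the spots), a 3.18-fold gap between probes of the same miRNA. It was 1.16 for miR-378c (standard error 0.12), 1.13 for miR-378e (standard error 0.09) and 1.05 for miR-378f (standard error 0.07). These 4 were above 1, as were 24.7% of the 1447 detected human miRNAs with at least 2 probes. After normexp background correction miR-378d was the only member above 1, at 1.16, and 6.5% of those miRNAs were above 1. The offset of 50 added by normexp narrows such differences for dim probes.

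The difference was 0.55 for miR-378b, 0.50 for miR-378i and 0.49 for miR-378a-3p. The probes of miR-378g differed by 0.16 (standard error 0.06) and those of miR-378h by 0.37 (standard error 0.19), and in both their spots overlapped. The median over the detected members was 0.55, and it was 0.36 over all detected human miRNAs with at least 2 probes. Between probes of miR-378d the gap was wider than the difference in log2 signal between miR-378d and miR-378b or miR-378f, so the order of these members depends on the probes read.

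**Figure D3:**
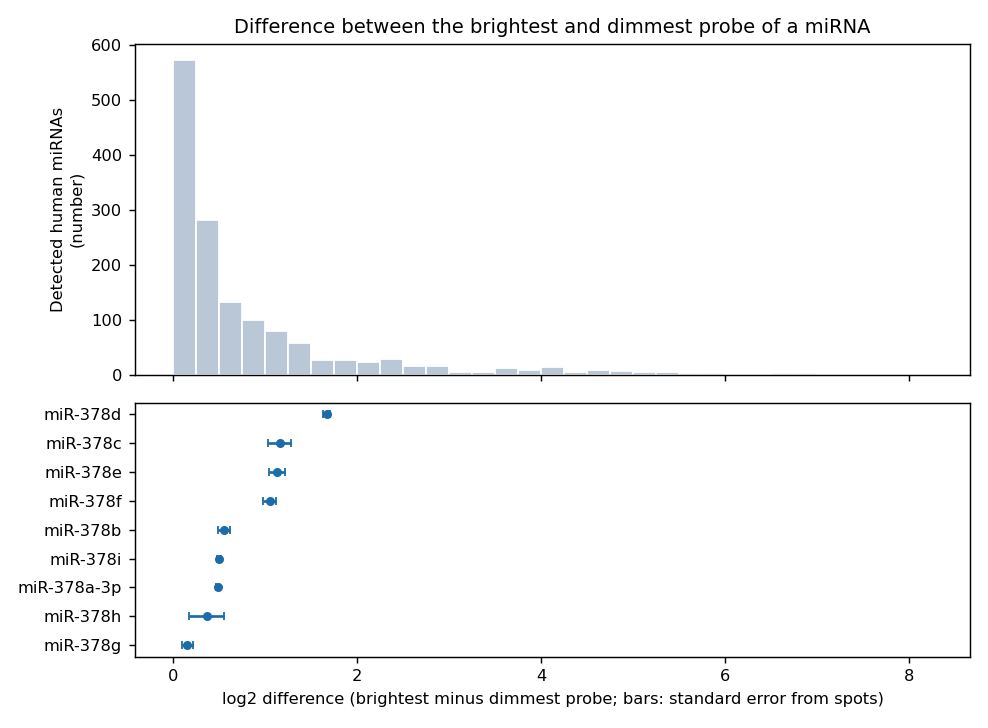
Top, number of detected human miRNAs (vertical axis) by the log2 difference between their brightest and dimmest probe (horizontal axis, bins of 0.25). Bottom, the same difference for the 9 detected members with the standard error from the spots. The members run from 0.16 for miR-378g to 1.67 for miR-378d.

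Within a probe, the spots of bright members repeated closely. The log2 SD between spots, pooled over the probes of a member, was 0.049 for miR-378a-3p and 0.050 for miR-378i. It was 0.40 for miR-378h, and its median over all detected human miRNAs was 0.18. Spots in the first rows of the array minus those in the last rows, each taken from the mean of its probe, differed by between -0.13 for miR-378f and 0.28 for miR-378h on the log2 scale. Columns of the array were not compared in this way. The brighter probe of miR-378c read 72.8 to 88.5 in columns up to 22 and 104.0 to 124.2 in columns from 50. Used spots in columns up to 49 also lay below those from 50 in the dimmer probe of miR-378c and both probes of miR-378f. The same held for the dimmer probes of miR-378b and miR-378e, the brighter of miR-378g and the second of miR-378a-3p. In both probes of miR-378d, miR-378h and miR-378i, and the brighter of miR-378e, low and high columns overlapped. Whether position across columns adds to the SD between spots, or to the standard errors from them, was not tested.

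The order of the 9 detected members, from miR-378a-3p through miR-378i, miR-378d, miR-378b, miR-378f, miR-378g, miR-378c and miR-378e to miR-378h, was that of the mean over probes. It was the same by the software's total signal, after normexp correction and in the authors' deposited values. With the brightest probe of each member 4 members changed place, as miR-378f passed miR-378b and miR-378c passed miR-378g. Of the neighbours in this order, the spot ranges of miR-378i and miR-378d were the only ones that did not overlap.

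**Figure D4:**
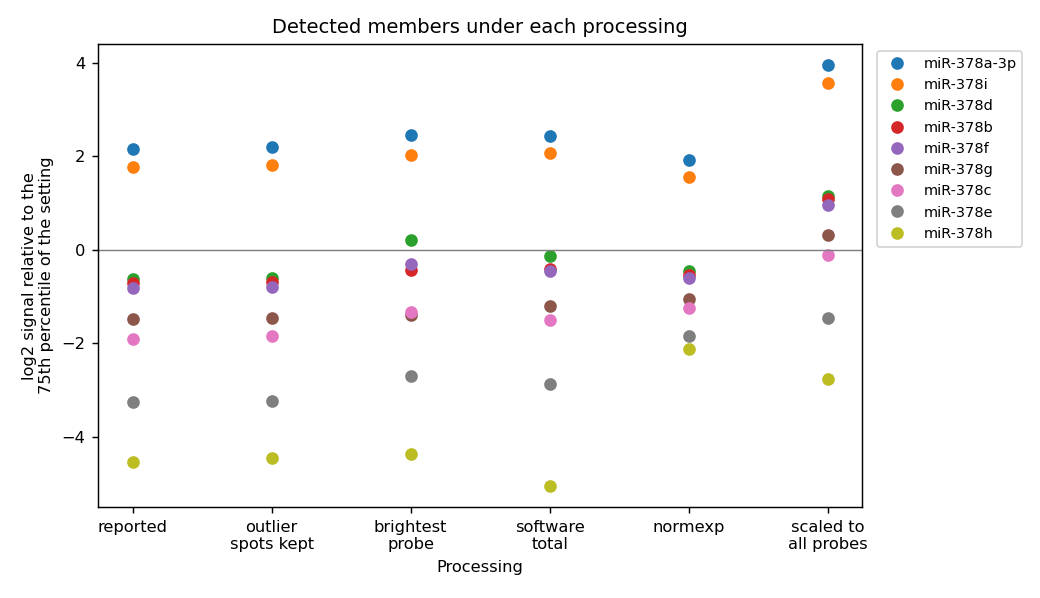
log2 signal of the 9 detected members (vertical axis) under 6 ways of processing (horizontal axis), each relative to the 75th percentile of that setting. miR-378a-3p and miR-378i are the upper pair in each column and miR-378h is the lowest. Scaling to all probes lifts miR-378d, miR-378b, miR-378f and miR-378g above 0.

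The software's total signal is given per miRNA and is not on the scale of spot brightness. How it combines the probes was not examined. It was 408.1 for miR-378a-3p, 317.3 for miR-378i and 69.1 for miR-378d. It was 10.3 for miR-378e and 2.28 for miR-378h. In the authors' normalized table the log2 value was 8.61 for miR-378a-3p and 8.24 for miR-378i, a difference of -0.06 and -0.07 from the log2 of their total signals. For miR-378b, miR-378c, miR-378d, miR-378e, miR-378f and miR-378g this difference ran from -0.31 to -0.42. miR-378h had the deposited value 2.33, which was above the log2 of its total signal, and miR-378a-5p had 2.32, the lowest value in the table, shared by all 1101 human miRNAs not detected. The deposited values thus hardly separate these members, of which only miR-378h was detected.

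Of 6 other miRNAs from introns of metabolic genes, 3 were detected. miR-33a-5p, miR-33a-3p and miR-33b-5p, from SREBF2 and SREBF1, the regulators of sterol and fatty acid synthesis, were not detected. miR-33b-3p averaged 48.7 ± 8.30 (SD over 18 spots). miR-103a-3p and miR-107, from introns of the pantothenate kinase genes of coenzyme A synthesis, had 29.7 ± 5.94 and 15.2 ± 5.20 (SD over 19 spots each).

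Of 7 muscle miRNAs on the array, 3 were detected, namely miR-133a-3p, miR-206 and miR-208b-3p. Their mean brightness was 14.2 ± 3.33 (SD over 19 spots), 26.7 ± 6.24 (SD over 20 spots) and 41.0 ± 7.03 (SD over 18 spots). miR-1-3p, miR-133b, miR-208a-3p and miR-499a-5p were not detected. The brightest probe of miR-107 was 1.58 times the 99th percentile of the negative controls and that of miR-133a-3p 1.31 times, with 8 and 2 of 20 spots well above background. The shares detected, 3 of 6 in the metabolic list and 3 of 7 in the muscle list, lay near the 56.8% of all human miRNAs. With 1 array no pattern across samples exists, so no miRNA could be ranked by likeness of its pattern to miR-378a-3p.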

How the data were processed

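miRNA was measured on 1 array, assigned to the negative control group from the sample labels. The deposited intensity of each spot came from a Cy3 scan read by Agilent Feature Extraction 11.0.1.1, in which the authors' software subtracted local background and set outlier and detection flags. The authors' deposited log2 values of the same array were quantile normalized in GeneSpring GX, per the methods, over arrays that are not named. The labels describe Cy3 ligated to miRNA, the methods labelled cDNA.

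Outlier and control spots were left out, intensities under 1 were raised to 1, and the log2 intensity was averaged by probe and then by miRNA. Each value is relative to the 75th percentile of the 2567 probes counted as detected. All members were named, with near sequences and short metabolic, muscle, gut and blood lists. The members and lists were chosen with earlier results of these data known. Alternatives covered detection, background, scaling, outliers and the summary over probes. limma 3.58.1 in R 4.3.3 gave normexp values (offset 50) from median spot signals, since mean signals are not a column of the scanner output. Python 3.11.15, numpy 2.4.6, pandas 2.3.3, scipy 1.17.1 and matplotlib 3.10.9 were used, and the probe summary was tested on simulated data. The number of arrays limits the precision: no test between conditions was possible and no p-value is given.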

Additional observations from a re-analysis of the deposited data

Results flagged for a closer look

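2 human miRNAs that are close in sequence to the family but outside its member list had signal above the negative control spots. The brightest probe of hsa-miR-378j was 9.75 times the 99th percentile of these spots, and the brightest probe of hsa-miR-422a was 20.9 times it. Whether this signal came from these miRNAs or from related ones was not tested.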

How the results depend on the processing

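The number of members detected, 9, was 8 when a probe needed at least a share of 0.5 of its spots, or every spot, well above background, as miR-378h was lost, and 9 with positive and significant spots. The number of detected members less than 2-fold above the negative controls, 1, was 2 with a margin of 4-fold, 2 after normexp correction (miR-378e and miR-378h), and 0 without the brightest negative control probe. The median log2 signal of the detected members, -0.83, was -0.60 after normexp correction, -0.44 for the brightest probe, -0.46 from the total signal and 0.96 with the percentile over all probes, which is 71.9 in brightness and so raises every value. That scaling turned the sign of miR-378b to 1.08, miR-378d to 1.15, miR-378f to 0.96 and miR-378g to 0.31, and the brightest probe of miR-378d gave 0.20. The median probe difference, 0.55, was 0.46 with normexp, and the number of members with a difference above 1 fell from 4 to 1. With outlier spots kept, the median signal, -0.80, and the median probe difference, 0.56, moved by less than the spread between spots. Depth of signal limits miR-378h and miR-378a-5p, whose probe means lay below the 99th percentile of the negative controls, 12.5, although miR-378h exceeded it without the brightest negative control probe. No paired analysis was possible because only 1 array was analysed. The normexp values include an added offset of 50, which by arithmetic narrows log2 differences and fold margins between dim values. How much of the normexp moves came from this offset was not measured. Apart from the scaling constant and this offset, the causes of these moves were not tested.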
